A study of Mus musculus with 16 samples.

Results

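Short chain fatty acids such as butyrate reach the islet from the gut and can be sensed at the cell surface or burned inside the cell. The genes described here are 9 of the 52636 in the count table, chosen by name for these roles. They are 5 receptors of fatty acids and related metabolites (Ffar1, Ffar2, Ffar3, Hcar2 and Gpr119), 1 transporter (Slc5a8) and 3 mitochondrial or cytosolic enzymes (Acads, Acss1 and Acss2). FFAR2 and FFAR3 are the classical short chain fatty acid receptors and signal through inhibitory G proteins, FFAR2 also through Gq. FFAR1 answers longer fatty acids through Gq and potentiates insulin secretion, GPR119 answers lipid amides and lysophospholipids through Gs, and HCAR2 answers niacin, 3-hydroxybutyrate and butyrate. SLC5A8 carries short chain fatty acids into the cell together with sodium, ACADS performs the first oxidation step on butyryl-CoA, and ACSS1 and ACSS2 turn acetate into acetyl-CoA in the mitochondrion and in the cytosol and nucleus.

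The study asked how butyrate acts on islets, the endocrine cell clusters of the pancreas, under a low and lasting dose of the inflammatory cytokine IL-1β. Islets of male mice aged 12 weeks, labelled C57BL/6JRj (C57BL/6NRj in the study's methods), were kept for 10 days in medium with 2% human serum, renewed on day 5. They received no addition (control), 0.2 mM sodium butyrate, IL-1β at 50 pg/mL, or both, and RNA of 500 islets per condition was sequenced. Each condition had 4 libraries, labelled as replicates 1 to 4, each from islets pooled over several mice, so that p-values measure the spread between these libraries and not between mice. A library held 18635943 to 25955943 counts (median 22184715). Levels are given as CPM, the counts of a gene relative to all counts of its library. Beta cell markers were high in every library, as the tissue label says, with a summed level of 214385 to 237179 CPM in control islets. Alpha, delta and PP cell hormones were also high. Markers of neutrophils, lymphocytes and acinar cells were mixed: Ly6g, Cd8a and Amy2a5 had at most 3 counts in each library, but Csf3r had 3 to 35, Cd3e 15 to 57, Cd22 16 to 57, Prss2 0 to 60 and Cela1 134 to 608 counts. Counts were scaled to CPM with the TMM method of edgeR, and a gene was called at an edgeR quasi-likelihood adjusted p under 0.01 over 18587 genes tested.

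Of the 9 genes, 8 passed the filter on low counts and only Acss1 did not. No gene was at or below 3 counts in all 4 libraries of a condition. All 3 Ffar genes lie on the minus strand of chromosome 7 (GRCm38, GENCODE M21 exons). Ffar2 (ENSMUSG00000051314) spans chr7:30818348-30823775, Ffar3 (ENSMUSG00000019429) chr7:30854330-30856178 and Ffar1 (ENSMUSG00000044453) chr7:30857390-30861564. Ffar3 and Ffar1 are separated by only 1211 bases and Ffar2 and Ffar3 by 30554 bases, and no exon is shared between them. Hcar2 (ENSMUSG00000045502) is at chr5:123863570-123865499, Gpr119 (ENSMUSG00000051209) at chrX:48667979-48674478, and Acads (ENSMUSG00000029545) at chr5:115110299-115119346, all on the minus strand. Slc5a8 (ENSMUSG00000020062) is at chr10:88885992-88929515 on the plus strand, Acss1 (ENSMUSG00000027452) at chr2:150618105-150668500 on the minus strand and Acss2 (ENSMUSG00000027605) at chr2:155517948-155585724 on the plus strand.

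Promoter sequences of 4 genes are shown because their neighbours or roles pair them in the results: Ffar1 and Ffar3 are adjacent receptor genes that fell with IL-1β, and Acads and Acss2 are the enzymes that rose with butyrate. They were taken from the RefSeq table of GRCm38.p6 and read 5′ to 3′ on the strand of the gene. Each was cut at the first annotated start, so that it lies before the annotated transcripts of its own gene. The Ffar3 window lies between Ffar3 and Ffar1, downstream of Ffar1 on the same strand, and transcription through it was not tested. Capitals mark the GC box, searched as GGGCGG on both strands. The windows are chr7:30861565-30861720 for Ffar1, chr7:30856179-30856428 for Ffar3, chr5:115119347-115119596 for Acads and chr2:155517793-155517947 for Acss2.
Ffar1: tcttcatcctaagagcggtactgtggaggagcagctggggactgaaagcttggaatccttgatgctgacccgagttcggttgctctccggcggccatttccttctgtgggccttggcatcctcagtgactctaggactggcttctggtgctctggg
Ffar3: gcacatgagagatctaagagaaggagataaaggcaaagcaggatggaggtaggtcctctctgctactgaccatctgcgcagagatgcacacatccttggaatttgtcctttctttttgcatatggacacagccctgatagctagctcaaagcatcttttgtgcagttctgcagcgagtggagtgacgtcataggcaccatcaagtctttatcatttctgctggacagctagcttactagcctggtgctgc
Acads: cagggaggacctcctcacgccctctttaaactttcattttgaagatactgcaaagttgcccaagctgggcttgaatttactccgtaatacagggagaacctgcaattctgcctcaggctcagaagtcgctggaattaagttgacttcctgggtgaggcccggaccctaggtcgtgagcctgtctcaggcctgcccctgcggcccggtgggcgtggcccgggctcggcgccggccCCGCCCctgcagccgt
Acss2: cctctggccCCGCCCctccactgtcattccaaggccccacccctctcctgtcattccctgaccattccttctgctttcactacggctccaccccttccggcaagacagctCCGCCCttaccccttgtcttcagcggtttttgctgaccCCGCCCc
The windows of Acads and Acss2 held more CpG dinucleotides than those of the 4 receptors Ffar1, Ffar2, Ffar3 and Gpr119, and Acss1 and Hcar2 were not compared. In the full 300-base RefSeq window, CpG numbered 17 for Acads, 20 for Acss2 and 20 for Slc5a8, against 9 for Ffar1, 11 for Ffar2, 4 for Ffar3 and 4 for Gpr119, where the median of 32851 windows was 7. The upper quartile of those windows was 20, and no window compared here lay above it. The GC box occurred 1 time in the Acads window, 5 times in that of Acss2 and 3 times in that of Slc5a8, and these letters were not in the windows of the 4 receptors that matched the table. Of all windows, 35.7% held it. A match of letters is a description and not a binding site.

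To set the genes against each other, CPM was divided by the length of all annotated exons in kb. Ffar1 was the most abundant, with a mean of 39.3 CPM per kb over the 16 libraries, above 95.6% of the genes tested on this scale. Gpr119 followed with 21.7, Ffar2 with 17.3 and Ffar3 with 11.4 CPM per kb. Acads had 7.37, Hcar2 3.33 and Acss2 2.78 CPM per kb. Slc5a8 and Acss1 were near the limit of detection, with 0.0965 and 0.0672 CPM per kb. In control islets the libraries of Gpr119 and Ffar2, of Hcar2 and Acss2, and of Slc5a8 and Acss1 overlapped on this scale, and the other neighbours in the order did not. The value of Acss2 counts the exons of all its isoforms, 10163 bases, and so is low for any single transcript.

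**Figure D1:**
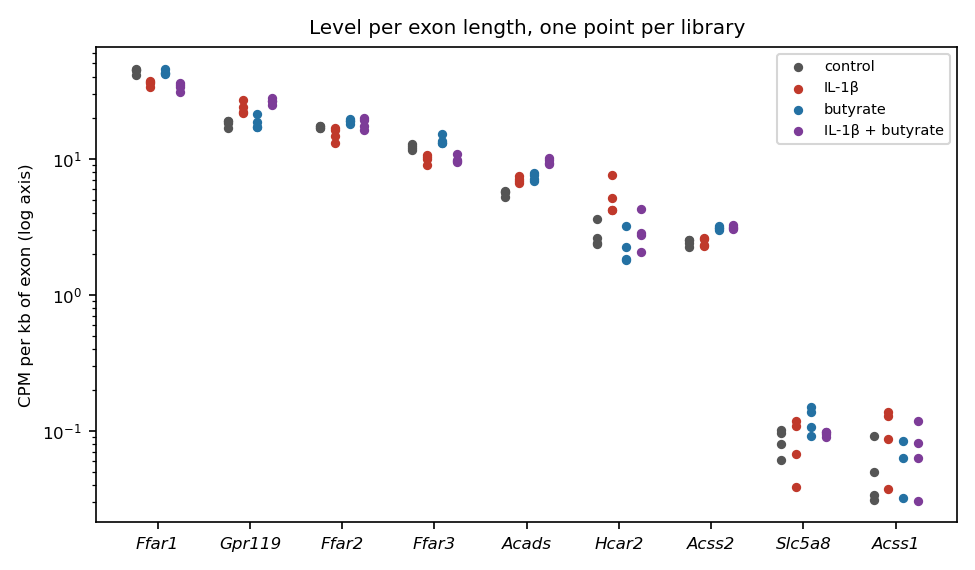
CPM per kb of exon (log axis) for each of the 9 genes, ordered by mean, with 1 point per library coloured by condition; the butyrate library in which Acss1 had 0 counts cannot be drawn. Ffar1 lies highest, with a mean of 39.3, and Slc5a8 and Acss1 lie far below the other 7 genes.

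IL-1β lowered the transcripts of Ffar1 and Ffar3 and raised those of Gpr119 and Acads, whether butyrate was absent or present. In IL-1β against control, 2 of the 8 genes tested rose and 2 fell, where 11.2% of all genes tested rose and 6.59% fell. In IL-1β plus butyrate against butyrate, again 2 rose (9.92% of all genes) and 2 fell (4.86%), and these were the same 4 genes. Butyrate raised the enzymes Acads and Acss2. Against control, 2 genes rose, where 8.53% of all genes rose and 11.4% fell. Against IL-1β alone, 3 genes rose with the addition of butyrate, where 8.41% of all genes rose and 11.1% fell. Both of these comparisons share libraries with the IL-1β comparisons. With both agents against control, 3 genes rose (15.8%) and 2 fell (14.8%).

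The split of all genes into higher and lower depended on the scaling. For IL-1β against control 2087 genes were higher and 1224 lower, but 1914 and 1800 with upper-quartile scaling and 2798 and 708 with library size alone. For butyrate against control 1585 were higher and 2112 lower, but 2207 and 1566 with upper-quartile scaling. For IL-1β plus butyrate, 1563 were higher and 2066 lower against IL-1β, but 2137 and 1566 with upper-quartile scaling, and 1844 were higher and 903 lower against butyrate, but 1612 and 1420 with upper-quartile scaling and 3153 and 451 with library size alone. Against control both agents gave 2937 higher and 2751 lower, but 3805 and 1884 with library size alone. No call of the 9 genes that is given here as a rise or a fall was lost with these scalings.

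**Figure D2:**
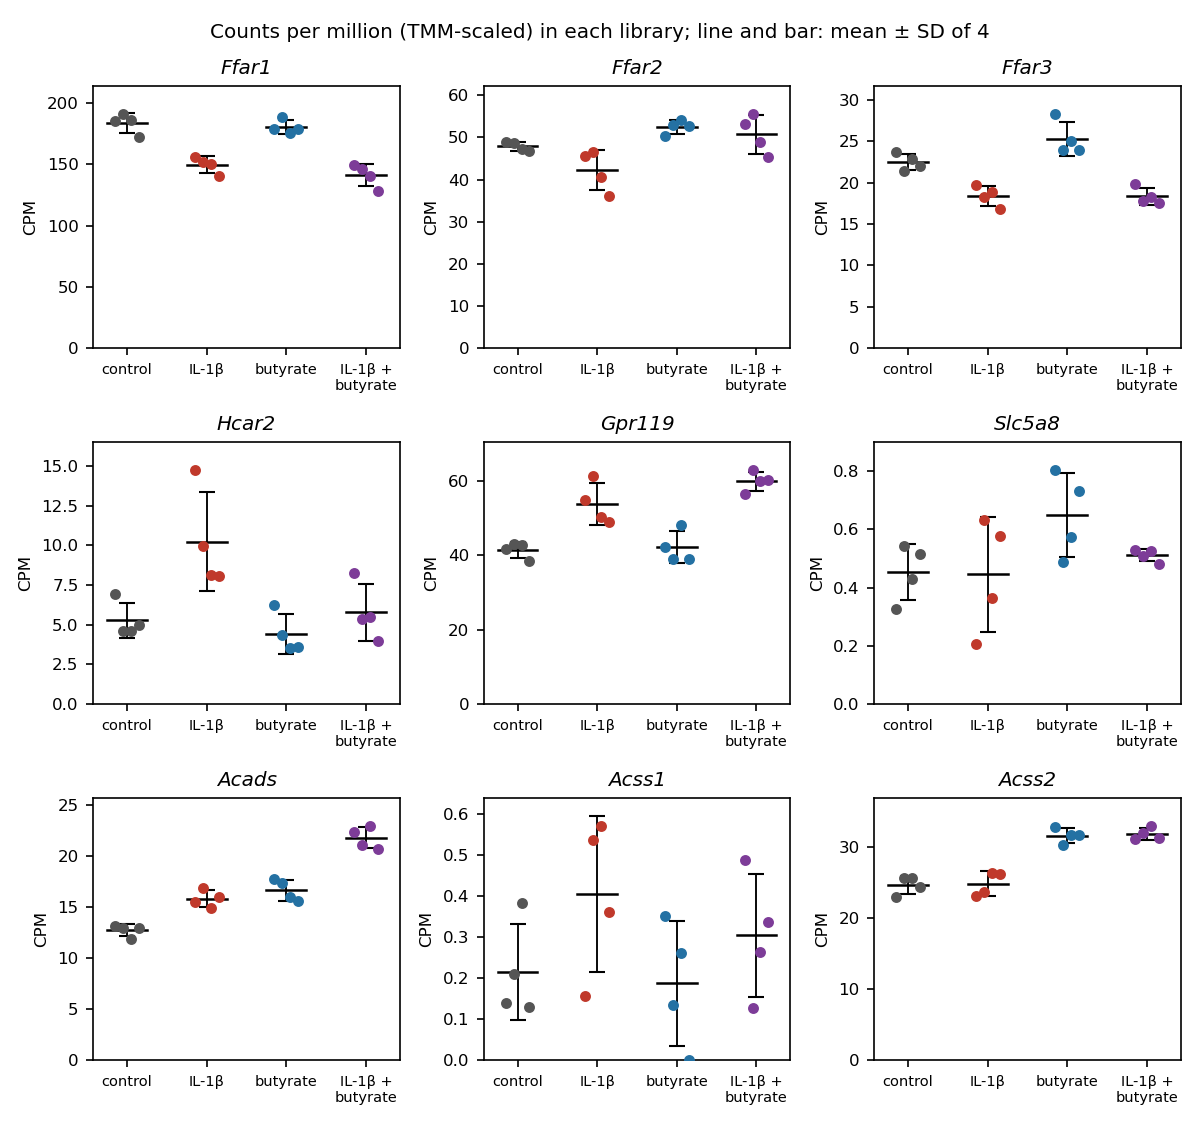
TMM-scaled CPM of the 9 genes, 1 panel per gene with its own axis from 0, 1 point per library, and line and bar for the mean and SD of the 4 libraries of a condition. The red and purple points (IL-1β without and with butyrate) lie below the others for Ffar1 and Ffar3 and above them for Gpr119, and Acads is highest with both agents (mean 21.7 CPM).

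Ffar1, the long chain fatty acid receptor of the beta cell, had 186, 191, 187 and 173 CPM in control replicates 1 to 4 and 179, 189, 176 and 179 CPM with butyrate. With IL-1β it had 156, 152, 151 and 141 CPM, and with both agents 149, 146, 141 and 128 CPM. Every library that received IL-1β was below every library that did not. The transcript fell by 18.6% with IL-1β (log2 fold change -0.30, SE 0.05, edgeR adjusted p = 3.3e-05) and by 21.8% in the presence of butyrate (log2 fold change -0.36, SE 0.05, adjusted p = 2.9e-06). Butyrate alone gave a log2 fold change of -0.03 (SE 0.05, adjusted p = 0.74) and butyrate on top of IL-1β one of -0.09 (SE 0.05, adjusted p = 0.20), neither past the threshold.

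Ffar3 followed a like course at a lower level. It had 23.7, 21.4, 22.8 and 22.0 CPM in control, 19.6, 18.3, 18.9 and 16.7 CPM with IL-1β, 28.3, 23.9, 25 and 24 CPM with butyrate, and 19.9, 17.8, 18.2 and 17.5 CPM with both. The 8 libraries with IL-1β lay below the 8 without it, and those with butyrate alone lay above those of control. The fall with IL-1β was 18.3% (log2 fold change -0.29, SE 0.07, edgeR adjusted p = 0.0013), and it was no longer called without IL-1β replicate 4 (log2 fold change -0.23, adjusted p = 0.013). Against butyrate the fall was 27.2% (log2 fold change -0.46, SE 0.07, adjusted p = 4.5e-06). Butyrate alone gave 0.17 on the log2 scale (SE 0.06, adjusted p = 0.047), which did not pass, and which did with upper-quartile scaling (adjusted p = 0.0059). The butyrate effects in the presence and absence of IL-1β, 0.00 and 0.17, were not shown to differ (difference -0.17, SE 0.09, adjusted p = 0.76).

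Ffar2, the receptor with the broadest coupling of the pair that binds short chain fatty acids, differed less between conditions. It had 48.8, 48.8, 47.2 and 46.7 CPM in control and 50.3, 53.1, 54.1 and 52.7 CPM with butyrate. With IL-1β the values were 45.5, 46.5, 40.7 and 36.1 CPM, and with both agents 53.2, 55.6, 48.8 and 45.3 CPM. The IL-1β libraries lay just below those of control, while the libraries with IL-1β and with both agents overlapped. Addition of butyrate to IL-1β raised Ffar2 by 20.6% (log2 fold change 0.27, SE 0.07, edgeR adjusted p = 0.0029). This call did not hold without IL-1β replicate 3 (adjusted p = 0.015), IL-1β replicate 4 (0.024), IL-1β plus butyrate replicate 1 (0.018) or IL-1β plus butyrate replicate 2 (0.023), nor when only the 2 conditions were fitted (0.016). With a replicate block it held (0.27, edgeR adjusted p = 5.2e-05), though no label says that the replicate numbers pair libraries. IL-1β against control gave -0.19 (SE 0.07, adjusted p = 0.041) and butyrate against control 0.13 (SE 0.07, adjusted p = 0.13) on the log2 scale, and with both agents Ffar2 was at 50.7 ± 4.6 CPM (SD, n = 4) against 47.9 ± 1.1 in control (adjusted p = 0.34).

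Gpr119, a receptor that raises cAMP in beta and enteroendocrine cells, went the other way from Ffar1. It had 41.7, 42.9, 42.7 and 38.3 CPM in control and 42.0, 39.0, 48.2 and 39.0 CPM with butyrate, and these overlapped. With IL-1β it had 54.6, 61.2, 50.3 and 48.8 CPM, and with both agents 56.4, 62.8, 59.8 and 60.1 CPM, all above the libraries without IL-1β. The rise was 29.6% with IL-1β (log2 fold change 0.37, SE 0.07, edgeR adjusted p = 0.00016) and 42.3% with IL-1β in the presence of butyrate (log2 fold change 0.51, SE 0.07, adjusted p = 2.9e-06). Butyrate on top of IL-1β gave 0.16 on the log2 scale (SE 0.07, adjusted p = 0.084), which passed only without IL-1β replicate 2 (0.22, adjusted p = 0.0097).

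Hcar2 had the widest spread of the receptors and the largest fold differences. It had 6.91, 4.63, 4.59 and 5.01 CPM in control, 14.7, 9.93, 8.14 and 8.08 CPM with IL-1β, 6.23, 4.35, 3.50 and 3.57 CPM with butyrate, and 8.24, 5.35, 5.47 and 4.0 CPM with both. In each condition the highest library was the one labelled replicate 1. All IL-1β libraries were above all control libraries, whereas those with both agents overlapped with the other 3 conditions. IL-1β gave 0.94 on the log2 scale (SE 0.25, edgeR adjusted p = 0.013), short of the threshold, and addition of butyrate to IL-1β gave -0.80 (SE 0.25, adjusted p = 0.026). In fits without a replicate block, the result for IL-1β sat at the edge of the call. DESeq2 (adjusted p = 0.0027) and limma-voom (0.0016) made it, upper-quartile scaling gave 0.00997 and leaving out control replicate 3 gave 0.043. The result for butyrate on top of IL-1β was called by limma-voom (0.0042) and without IL-1β plus butyrate replicate 1 (0.0050). With a replicate block, edgeR called both results (adjusted p = 1.3e-10 for IL-1β and 2.9e-09 for butyrate on top of IL-1β). No label says that the replicate numbers pair libraries, although the study describes independent experiments and the library names number each replicate's conditions consecutively. Without the block, butyrate alone gave -0.26 (SE 0.28, adjusted p = 0.55), and the difference between the butyrate effects was -0.54 (SE 0.38, adjusted p = 0.88). With the block, edgeR gave -0.26 (adjusted p = 0.056) for butyrate alone and -0.56 (adjusted p = 0.032) for the difference. Neither passed the threshold.

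HCAR2 is a receptor of macrophages and neutrophils as well, and their markers moved in these libraries. Of 12 macrophage markers, 11 rose with IL-1β and C1qa fell, with a median log2 fold change of 2.35 where that of all genes tested was -0.03. With butyrate on top of IL-1β, 5 of the 12 fell (Adgre1, C1qa, C1qb, C1qc and Cd68), with a median of -0.80. The summed level of the list was 133 to 145 CPM in control, 196 to 252 with IL-1β, 88.7 to 108 with butyrate and 107 to 150 with both, and C1qa made up most of it in control islets (111 ± 11 CPM, SD, n = 4). Csf1r, the receptor of the macrophage growth factor, went from 3.19 ± 0.66 CPM in control to 14.5 ± 3.9 with IL-1β, 1.89 ± 0.49 with butyrate and 10.5 ± 4.1 with both. No macrophage marker was at 3 counts or fewer throughout. Of 7 neutrophil markers, 2 passed the filter and Csf3r rose with IL-1β. The part of these cells in the Hcar2 values was not tested.

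Beta cell markers moved beside the receptors too. Of 8 markers, 6 fell with IL-1β (Ins1, Ins2, Mafa, Nkx6-1, Slc2a2 and Ucn3) and Iapp rose, with a median log2 fold change of -0.55, and their summed level was 137754 to 179437 CPM with IL-1β and 138092 to 170288 with both agents. With butyrate alone it was 222750 to 262255 CPM, and 2 markers rose (G6pc2 and Iapp) and Ucn3 fell. In RNA of whole islets, fewer cells of a type and less RNA per cell cannot be told apart. The part of these shifts in the values of Ffar1, Ffar3 and Gpr119 was not tested. Of the other lists, alpha cell markers summed to 20242 to 25763 CPM with IL-1β (control 21074 to 24229), and Ttr of that list fell. Of 3 delta cell markers Sst rose with butyrate, and the 2 PP cell markers summed to 2234 to 3050 CPM in control and 1824 to 2394 with IL-1β. Duct markers rose for Krt7 and Muc1 (2 of 4 tested) with IL-1β, Pecam1 rose among 4 endothelial markers, and Acta2 and Pdgfrb fell among 5 stellate cell markers. Of 3 acinar markers tested Cela1 fell with butyrate on top of IL-1β, and of 4 B and T cell markers tested Cd22 rose with butyrate.

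**Figure D3:**
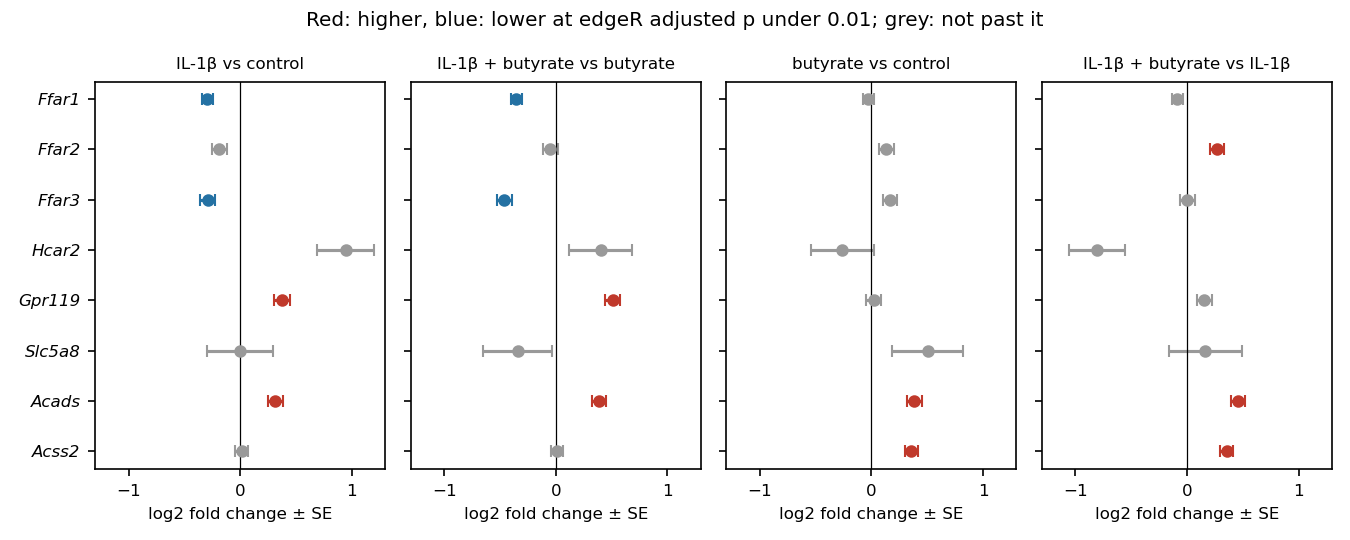
Log2 fold change ± SE (edgeR) of the 8 genes tested in 4 comparisons, with red for higher, blue for lower and grey for genes that did not pass an adjusted p under 0.01. Ffar1, Ffar3, Gpr119 and Acads are coloured in both comparisons with IL-1β, and Acads and Acss2 in both comparisons with butyrate.

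Slc5a8, the sodium-coupled transporter, was scarcely detected. It had 7, 13, 9 and 12 counts in control, 4, 13, 7 and 16 with IL-1β, 16, 11, 11 and 17 with butyrate, and 13, 12, 12 and 10 with both. All conditions overlapped, and 183 counts fell on it in all 16 libraries. Butyrate against control gave 0.50 on the log2 scale with an SE of 0.32 (edgeR adjusted p = 0.26), so that a difference of this size did not pass at this depth. The other comparisons gave adjusted p-values from 0.51 to 1.0.

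Acads, the short chain acyl-CoA dehydrogenase, was the only one of the 8 genes called in each of the 5 comparisons between conditions. It had 13.1, 13, 11.8 and 12.9 CPM in control, 15.5, 16.8, 14.9 and 16 CPM with IL-1β, 17.7, 17.3, 16 and 15.5 CPM with butyrate, and 22.3, 21.1, 22.9 and 20.7 CPM with both. Control lay lowest and the combination highest without overlap, and the libraries of the single agents overlapped with each other. The transcript rose by 24.4% with IL-1β (log2 fold change 0.32, SE 0.07, edgeR adjusted p = 0.00060), by 30.8% with butyrate (0.39, SE 0.07, adjusted p = 5.4e-05) and by 71.2% with both (0.78, SE 0.06, adjusted p = 1.6e-10). Butyrate on top of IL-1β raised it by 37.5% (0.46, SE 0.06, adjusted p = 2.8e-06), and IL-1β on top of butyrate by 30.9% (0.39, SE 0.06, adjusted p = 2.7e-05). The butyrate effect in islets given IL-1β and that in islets not given it differed by 0.07 (SE 0.09, adjusted p = 0.95), which did not pass.

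Acss2, the acetate-activating enzyme of cytosol and nucleus, responded to butyrate and not detectably to IL-1β. It had 22.9, 25.6, 25.6 and 24.4 CPM in control and 23.1, 23.7, 26.4 and 26.3 CPM with IL-1β, which overlapped. With butyrate it had 32.8, 30.3, 31.7 and 31.7 CPM and with both agents 31.2, 32.0, 33.0 and 31.3 CPM, and all 8 were above the 8 libraries without butyrate. Butyrate raised it by 28.2% alone (log2 fold change 0.36, SE 0.06, edgeR adjusted p = 1.4e-05) and by 27.9% on top of IL-1β (0.36, SE 0.06, adjusted p = 1.7e-05). IL-1β gave 0.01 against control (SE 0.06, adjusted p = 0.89) and 0.01 against butyrate (SE 0.05, adjusted p = 0.93).

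Exons of Acss2 share bases with 3 genes on the opposite strand, and since the strand setting of the counting is not given in the sources used here, reads there cannot be told apart. They are Gss (395 bases), Acss2os (335 bases) and Ggt7 (197 bases). Acss2os had at most 3 counts in a library. Ggt7 was at 41.2 ± 2.2 CPM (SD, n = 4) in control and 37.8 ± 1.8 with butyrate (log2 fold change -0.12, edgeR adjusted p = 0.13). It rose with IL-1β (0.28, adjusted p = 0.00039) and fell with butyrate on top of IL-1β (-0.27, adjusted p = 0.00061). Gss was at 14.9 ± 0.49 and 16.8 ± 0.87 CPM (log2 fold change 0.18, adjusted p = 0.045).

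Acss1, the mitochondrial enzyme, had 3, 5, 8 and 3 counts in control, 3, 11, 11 and 10 with IL-1β, 7, 3, 5 and 0 with butyrate, and 12, 3, 6 and 7 with both. All conditions overlapped, the sum over 16 libraries was 97 counts, and no test was made. The count of 0 in butyrate replicate 4 allows up to 3 counts at the same depth, for counting error only. Its exons share 113 bases with E130215H24Rik on the opposite strand, which had 0 to 2 counts.

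For butyrate in the absence of IL-1β, edgeR, DESeq2 and limma-voom each called 0 of the 5 receptors. Of all genes tested, edgeR called 8.53% higher and 11.4% lower in this comparison. Each tool gave 1 receptor, Ffar3, with an unadjusted p under 0.05. In alternative edgeR fits Ffar3 was called with upper-quartile scaling (adjusted p = 0.0059) and with a replicate block (0.0093). The difference between the butyrate effect in the presence of IL-1β and that in its absence was not called for any of the 8 genes, where 0.0968% of all genes tested were called. For this difference edgeR, DESeq2 and limma-voom, all without a replicate block, gave 0 of the 8 at an adjusted p under 0.01 and 0 at an unadjusted p under 0.05. With the block, edgeR called none of them either, and the lowest adjusted p was 0.032, for Hcar2. With both agents Ffar1 was 23.3% lower than in control (log2 fold change -0.38, SE 0.05, adjusted p = 4.1e-07), Ffar3 was 18.1% lower (-0.29, SE 0.07, adjusted p = 0.00079), Gpr119 was 44.3% higher (0.53, SE 0.07, adjusted p = 7.0e-07) and Acss2 was 29.1% higher (0.37, SE 0.06, adjusted p = 4.1e-06). Hcar2 was at 5.77 ± 1.8 CPM with both agents and 5.28 ± 1.1 in control (SD, n = 4, adjusted p = 0.74).

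The other genes of the pathway were 74, of which 64 were tested. With IL-1β, 13 rose and 7 fell, beside 11.2% and 6.59% of all genes tested, and with butyrate 9 rose and 8 fell, beside 8.53% and 11.4%. Butyrate on top of IL-1β gave 8 higher and 10 lower, beside 8.41% and 11.1% of all genes tested. IL-1β on top of butyrate gave 9 higher and 8 lower, beside 9.92% and 4.86%. Their median log2 fold change was 0.01 with IL-1β (all genes tested -0.03) and 0.03 with butyrate (all genes 0.01). Of the other receptors 4 of 9 were tested, and with IL-1β Gpr35, a receptor of tryptophan metabolites, rose (log2 fold change 1.17, SE 0.25, edgeR adjusted p = 0.00083) and Hcar1, the lactate receptor of the same family as Hcar2, fell (-0.75, SE 0.14, adjusted p = 0.00021). Ffar4, the second long chain fatty acid receptor, was at 5.59 ± 0.91 CPM in control, 7.20 ± 0.50 with IL-1β, 7.55 ± 0.98 with butyrate and 9.26 ± 1.9 with both (SD, n = 4), and it was called with both agents against control (log2 fold change 0.73, SE 0.13, adjusted p = 7.1e-05) but with neither single agent.

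Among 18 genes that couple the receptors, all tested, 4 rose and 1 fell with IL-1β (11.2% and 6.59% of all genes) and 5 rose and 3 fell with butyrate (8.53% and 11.4%). Gnai2, an inhibitory G protein subunit through which FFAR2, FFAR3 and HCAR2 signal, rose from 326 ± 4 CPM (SD, n = 4) in control to 366 ± 14 with IL-1β (log2 fold change 0.17, SE 0.04, edgeR adjusted p = 0.0039) and 423 ± 16 with butyrate (0.38, SE 0.04, adjusted p = 1.4e-07). Gnao1 and Gnai3, subunits of the same class, rose with butyrate by 0.25 and 0.20 on the log2 scale, Arrb2, an arrestin that ends receptor signalling, by 0.37 and the phospholipase Plcb3 by 0.50. Plcb1 (-0.39), Plcb4 (-0.28) and Adcy9 (-0.17) fell. The adenylyl cyclase Adcy8, which makes cAMP, rose with IL-1β (log2 fold change 1.29, SE 0.19, adjusted p = 1.6e-05) and was lowered by butyrate on top of IL-1β (-1.25, SE 0.19, adjusted p = 2.5e-05).

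Monocarboxylate carriers offer another way in for butyrate, and 10 of 11 genes were tested. Slc16a1, the widespread carrier MCT1, was at 0.934 ± 0.30 CPM in control and 1.00 ± 0.25 with butyrate (SD, n = 4) and was not called. Slc16a6 rose with IL-1β (log2 fold change 0.49, SE 0.05, edgeR adjusted p = 8.6e-09) and with butyrate (0.26, SE 0.05, adjusted p = 0.00018). Slc16a12, a creatine carrier of the same family, was at 207 ± 15 CPM in control and fell with butyrate to 171 ± 6.9 (-0.28, SE 0.06, adjusted p = 0.00089). Bsg and Emb, the chaperones that bring such carriers to the surface, rose with IL-1β by 0.41 and 0.21 on the log2 scale. Of the acyl-CoA synthetases, 5 of 8 were tested and Acsf3, the malonyl-CoA synthetase of mitochondria, fell with butyrate (-0.63, SE 0.07, adjusted p = 5.3e-08) and rose with IL-1β (0.25, SE 0.06, adjusted p = 0.0039).

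All 11 listed genes of fatty acid oxidation and electron transfer, not all of them steps after Acads, were tested, and 2 rose with butyrate (8.53% of all genes). They were Hadh, the short chain hydroxyacyl-CoA dehydrogenase (log2 fold change 0.40, SE 0.05, edgeR adjusted p = 9.6e-07), and Acat1, the mitochondrial acetoacetyl-CoA thiolase (0.27, SE 0.05, adjusted p = 0.00013). Unlike Acads, Hadh fell with IL-1β, from 374 ± 9.5 to 291 ± 14 CPM (SD, n = 4, -0.36, SE 0.05, adjusted p = 3.7e-06), and was at 493 ± 26 CPM with butyrate and 352 ± 25 with both. Etfb, a subunit of the flavoprotein that takes electrons from ACADS, rose with IL-1β by 0.41 and Hadhb, of the trifunctional protein, by 0.25. Among ketone body genes, Oxct1 (-0.22) fell and Aacs (0.54) rose with IL-1β. With butyrate against control the lowest edgeR adjusted p in this list was 0.032, for Aacs, and none was called. Butyrate on top of IL-1β lowered 2 of the 5 genes, where 11.1% of all genes fell. They were Oxct1 and Aacs (-0.49 for Aacs, SE 0.08, edgeR adjusted p = 0.00013). Of 11 genes of acetyl-CoA and propionyl-CoA tested, Acly, which makes acetyl-CoA from citrate as ACSS2 does from acetate, fell with butyrate (-0.21, SE 0.06, adjusted p = 0.0041). In that list Crat (-0.37) and Mut (-0.31) also fell and Pcca (0.20) rose with butyrate, and Mut (-0.34) and Pcca (-0.26) fell and Slc25a20 (0.25) rose with IL-1β.

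**Figure D4:**
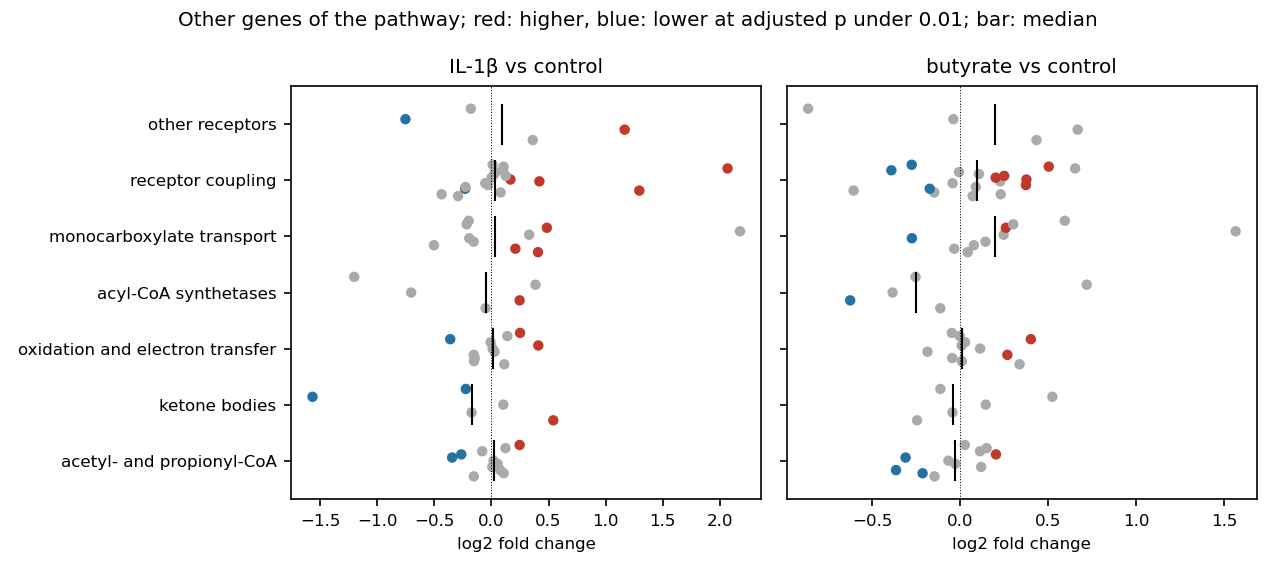
Log2 fold change of the 64 other genes of the pathway that were tested, by list, for IL-1β (left) and butyrate (right) against control, with red for higher, blue for lower, grey for genes not past an adjusted p under 0.01, and a bar for the median of each list. With IL-1β 13 points are red and 7 blue, and with butyrate 9 are red and 8 blue.

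The 3 genes whose log2 CPM followed each gene most closely over the 16 libraries were found among tested genes with an average log2 CPM of at least 1. The libraries share conditions and cell mixture, so the coefficients are a description. For Ffar1 they were Ppp1r1a (Pearson r = 0.984), Trpm5 (0.976) and Utrn (0.974), and for Ffar3 Gad1 (0.974), Vrk1 (0.971) and Rsrp1 (0.958). Ffar2 had Saraf (0.916), Clint1 (0.909) and Nars (0.908), and Gpr119 had Tmprss4 (0.969), Sdcbp (0.964) and Naxd (0.957). For Hcar2 they were Prkg2 (0.944), Ank (0.941) and Abca3 (0.941). Acads was followed by Cadm4 (0.976), Pkdcc (0.966) and Rras (0.960), Acss2 by Cd248 (0.982), Lix1l (0.980) and Cyb5r1 (0.975), and Slc5a8, with its few counts, by Acer3 (0.841), Sema6a (0.831) and Fbn2 (0.818).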

How the data were processed

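RNA of mouse islets in 4 conditions with 4 libraries each was sequenced single-end. The submitters' processing notes name bcl2fastq 2.19.1, FastQC 0.11.7, MultiQC 1.7, STAR 2.5.3a and DESeq2. The authors mapped the reads to GRCm38 and deposited raw counts per gene, whole numbers that are not normalized, in 16 columns with 0 columns of other samples. The annotation release, the strand setting and read filters are not given in the sources used here. Identifiers were matched to GENCODE M21 (52489 of 52636), and 10560 genes had no count in any library. Promoters came from RefSeq (7 of 9 genes used). Libraries were grouped by their labels. The reads had no molecular identifiers, so intervals and limits from counts cover counting error only.

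In R 4.3.3, edgeR 4.0.16 filtered genes (filterByExpr, 4 conditions), scaled counts by TMM and fitted 1 robust quasi-likelihood model to all 16 libraries without a replicate block. Benjamini-Hochberg adjustment ran over 18587 genes, and calls were made at an adjusted p under 0.01, the study's threshold. CPM used the same scaling, and log2 CPM a prior count of 2. Alternatives were RLE, upper-quartile and library-size scaling, DESeq2 1.42.0, limma-voom (limma 3.58.1), no filter, a filter of CPM of at least 1 in 4 libraries, only the conditions compared, a replicate block, an adjusted p under 0.05, and each library left out in turn. The fits were tested on simulated data. The text names the 9 genes, genes of the pathway and marker lists that were called or define their list, and the 3 genes most like each one tested. The genes and lists were chosen with earlier results of these data known, and the lists, written from general knowledge, were described by counts and medians only. Some genes of these lists are counted but not reported here by name.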

Additional observations from a re-analysis of the deposited data

How the results depend on the processing

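Of the calls of the 9 genes, that of Ffar3 with IL-1β and that of Ffar2 with butyrate on top of IL-1β were lost in an alternative, and no called value changed its sign. Among values called under neither setting, 34 changed sign, with a size of at most 0.18 on the log2 scale. Another scaling moved the median of all genes by at most 0.098 on the log2 scale. With single libraries left out, 3 to 5 of the 8 genes were called for IL-1β, 2 to 4 for butyrate on top of IL-1β, 2 for butyrate, 4 for IL-1β on top of butyrate and 5 for both agents against control. Over all genes, butyrate on top of IL-1β gave 3629 calls and 5595 at an adjusted p under 0.05, where the looser threshold itself adds calls. The difference between the butyrate effects gave 18 calls, 39 at an adjusted p under 0.05, 52 with DESeq2, 95 with no filter and 132 with the replicate block, and 11 to 25 with single libraries left out, the lowest without butyrate replicate 1. The cause was not tested. Scarce counts limit what can be said of Slc5a8 and Acss1.

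Replicate numbers are shared by the conditions, but no label says that they pair libraries. Deviations from the condition means correlated above 0.1 for 22 of 24 pairs with the same number (lowest 0.045, median 0.28). Among pairs with different numbers, 15 of 72 did so (median -0.13, highest 0.26). Centring on the condition means ties the same-number and different-number values to each other. In addition, 16 of 16 libraries were closest to their own number. The study describes independent experiments for these data, and the library names number the conditions of each replicate consecutively. These points favour pairing by replicate number, although no source used here states it outright. With the replicate block, IL-1β gave 4537 calls over all genes, butyrate 4879, butyrate on top of IL-1β 4983, IL-1β on top of butyrate 3750 and both against control 6899. Hcar2 was then called with IL-1β (log2 fold change 0.94, edgeR adjusted p = 1.3e-10), with butyrate on top of IL-1β (-0.82, adjusted p = 2.9e-09) and with IL-1β on top of butyrate (adjusted p = 0.0051), Ffar2 with IL-1β (adjusted p = 0.0038) and Ffar3 with butyrate (adjusted p = 0.0093). The block changed no other call of the 9 genes.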
